A study of Tachysurus fulvidraco x Tachysurus vachelli with 9 samples.

Results

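Lysosome genes were taken as the rows of the expression table whose KEGG column lists the lysosome pathway and not oxidative phosphorylation, which gave 231 of the 26163 genes. Another 18 rows carry both pathways and were not counted as members. No measured level was used to choose them. By product name, 34 members are proteases, 19 are enzymes of glycan breakdown, and 34 are lipid hydrolases, sulfatases and their helper proteins. A further 7 are nucleases and phosphatases, 32 are membrane proteins, and 38 belong to sorting and vesicle coats. The remaining 67 members have product names of no lysosomal protein. Of these, 61 carry the same KEGG ortholog as a member whose product is lysosomal, so for them the pathway label and the product name disagree. Tetraspanins, for example, carry the ortholog of *cd63*, and loci named as connector enhancer of kinase suppressor of ras carry that of *manba*. Among the members, 10 are merged loci, in which reads of neighboring genes cannot be separated.

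The lysosome is the acidic compartment in which cells break down material taken up from outside and worn-out parts of their own. Its hydrolases are made in the endoplasmic reticulum, receive a mannose 6-phosphate tag in the Golgi, and are carried by receptors, adaptors and clathrin coats to endosomes, while membrane proteins hold the boundary and move the products of digestion out. In many fish, enterocytes of the posterior intestine take up intact protein and degrade it in large lysosomal vacuoles, which makes this gut segment rich in such enzymes.

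The libraries came from the posterior intestine of hybrid yellow catfish, a cross that the labels give as *Tachysurus fulvidraco* x *Tachysurus vachelli*. The Str group (3 fish) was sampled after 16 h of simulated transport in bags on a shaker. The Rec group (3 fish) had 16 h of transport followed by 96 h of recovery, and the Ctrl group (3 fish) was untreated. All fish were fasted before the experiment. Feeding during the 16 h of transport and the 96 h of recovery was not stated, so feeding state and treatment cannot be told apart. Which bag each fish came from was not stated, and p-values measure the spread between these 9 samples only. Levels are given as deposited FPKM, the fragments per kilobase of transcript scaled to the mapped fragments of the library, so that levels of different genes can be set side by side. Counts summed to between 48605412 and 73110636 per library, and small counts peak at multiples of 4, so they are not plain read counts. Fold changes, given as log2 values with their standard errors (SE), come from the quasi-likelihood F test of edgeR on the counts of 17244 genes that reached 1 FPKM in 3 or more libraries. A gene is said to have risen or fallen where the Benjamini-Hochberg adjusted p over all 17244 genes is below 0.05.

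Of the 231 members, 186 passed the filter on low values and were tested. The other 45 include 7 proteases, 2 glycan-degrading enzymes, 6 lipid hydrolases and sulfatases, 8 membrane proteins, 3 sorting proteins and 19 of the members with other products, and none was at 0 FPKM in all 9 libraries. The highest single value among these was in LOC113663309, whose product is named as lipopolysaccharide-induced tumor necrosis factor-alpha factor, at 5.09, 11.3 and 0.0397 FPKM in Rec, 0.122, 0.767 and 0.334 FPKM in Str and 0, 0 and 0 FPKM in Ctrl. This locus was above 1 FPKM in 2 of the 9 libraries, both of them Rec.

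After 16 h of transport, 12 lysosome genes fell and 2 rose relative to Ctrl. Among all genes tested, 3.1% fell and 2.78% rose, against 6.45% and 1.08% of the tested members. At the thresholds of the paper, 1 log2 unit or more in size and an unadjusted p below 0.05, 34 members were lower and 6 were higher in Str, while 9.83% of all genes were lower and 7.32% higher. The median log2 fold change was -0.33 over the members and -0.00 over all genes. By class, the median was -1.06 for the glycan-degrading enzymes, -0.67 for proteases and -0.64 for lipid hydrolases and sulfatases, against 0.06 for both the membrane proteins and the nucleases and phosphatases, and 0.11 for sorting proteins. Of the tested members, 14 of 17 glycan-degrading enzymes, 23 of 27 proteases and 25 of 28 lipid hydrolases and sulfatases had a fold change below 0. The same held for 3 of 7 nucleases and phosphatases, 11 of 24 membrane proteins and 13 of 35 sorting proteins.

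**Figure D1:**
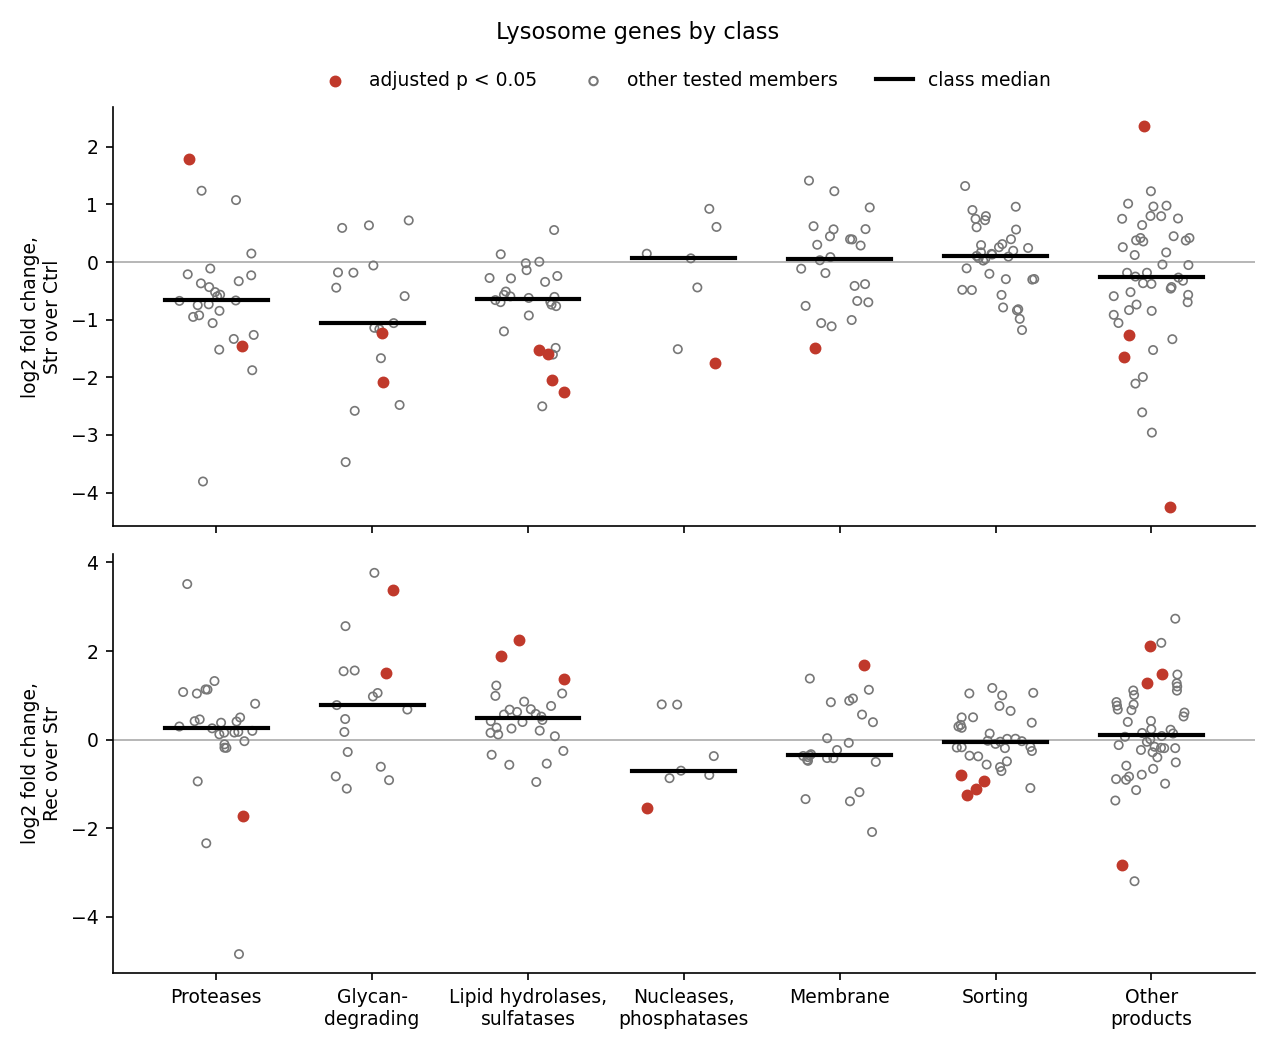
Log2 fold change (y axis) of each tested lysosome gene by class (x axis), for Str over Ctrl above and Rec over Str below; filled points have an adjusted p below 0.05, open points are the other tested members and bars are class medians. In Str over Ctrl the medians of the 3 classes at the left lie between -1.06 and -0.64. The median was 0.06 for nucleases and phosphatases, 0.06 for membrane proteins and 0.11 for sorting proteins.

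In the recovered fish, 9 lysosome genes rose and 7 fell relative to Str. Among all genes, 5.03% rose and 4.11% fell, and the shares of the tested members were 4.84% and 3.76%, close to that background. At the thresholds of the paper, 25 members were higher and 10 lower in Rec, with 11.3% of all genes higher and 8.83% lower. Class medians were 0.78 for glycan-degrading enzymes, 0.48 for lipid hydrolases and sulfatases, 0.25 for proteases, -0.05 for sorting proteins, -0.34 for membrane proteins and -0.70 for nucleases and phosphatases. The protease median depended on single fish, at 0.03 without Str-3, 0.62 without Str-2 and 0.40 without Rec-1, and that of the lipid class was 0.76 without Str-2. Over the 9 fits that each leave out 1 library, the medians ranged from 0.55 to 0.98 for glycan-degrading enzymes and from 0.33 to 0.76 for the lipid class. Without Rec-3 the median was -0.16 for membrane proteins and -0.40 for nucleases and phosphatases, and that of sorting proteins stayed between -0.07 and 0.03. Both comparisons use the same Str libraries, so a high or low Str library moves them in opposite directions.

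Between Rec and Ctrl no lysosome gene was called, and neither was any other gene (0% of 17244). At an unadjusted p below 0.05, edgeR gave 14 members and 1002 of all genes. DESeq2 called 115 genes in this comparison and limma called 0, none of them a member with either tool. At the thresholds of the paper 3 members were higher and 4 lower in Rec, set against 2.49% higher and 1.52% lower among all genes. The 3 were *abcb9*, *mcoln3* and *clta*, and the 4 were *smpd1*, *dnase2*, LOC113661315 (prosaposin-like) and LOC113656627 (patched domain-containing protein 3). They are named because the count is small and were chosen after their values were seen.

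Cathepsins were the most abundant proteases among the members. *ctsz* (cathepsin Z, a carboxypeptidase) had 76.9, 258 and 105 FPKM in Str, against 709, 703 and 220.1 FPKM in Ctrl, and Rec had 369, 388 and 71.1 FPKM. *ctsb* (cathepsin B, a cysteine protease of broad specificity) was at 126, 272 and 139 FPKM in Str and 307, 309.6 and 262 FPKM in Ctrl. *ctsh* (cathepsin H, an aminopeptidase) was at 80, 315 and 155 FPKM in Str and 261, 349 and 211 FPKM in Ctrl. None of these 3 passed the test in Str vs. Ctrl, with log2 fold changes of -1.88, -0.67 and -0.52, and for each the second Str fish lay above one or more Ctrl fish. In Rec vs. Str their log2 fold changes were 1.07, 0.16 and 0.18, again without a call.

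Cathepsin K is a collagen-degrading cysteine protease, known above all from bone-resorbing osteoclasts, and 1 locus in the table carries this product name. LOC113644778 (cathepsin K) had 45.6, 54.2 and 29.9 FPKM in Str, against 123, 149 and 97.3 FPKM in Ctrl. Every Str value lay below every Ctrl value, and the gene fell (log2 fold change -1.46 ± 0.33 SE, adjusted p = 0.0351). Rec had 75.4, 93.7 and 93.7 FPKM, all above the Str values (log2 fold change 1.13, adjusted p = 0.0616), which is not a call. Its neighbor on the same strand is LOC113644583 (cathepsin S), an elastin-degrading protease of antigen-presenting cells, at 121, 116 and 89.3 FPKM in Str and 94.1, 130.4 and 146 FPKM in Ctrl. These ranges overlap and the log2 fold change was -0.11.

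The single protease that rose, of 27 tested (3.7%, against 2.78% of all genes), was LOC113637690 (cathepsin L1), a major endopeptidase of lysosomes. It had 307, 218 and 236 FPKM in Str, against 90.1, 61.2 and 70.9 FPKM in Ctrl (log2 fold change 1.78 ± 0.43 SE, adjusted p = 0.0424). In Rec it had 96.8, 72.9 and 37.6 FPKM and fell relative to Str (log2 fold change -1.73 ± 0.43 SE, adjusted p = 0.0380). The 3 Str fish were thus above all 6 fish of the other groups. The table gives the same KEGG ortholog to 7 other members. Of these, 2 were tested and neither was called. LOC113661516 (digestive cysteine proteinase 2-like) had 1.6, 6.63 and 2.9 FPKM in Str and 4.55, 11.9 and 3.22 FPKM in Ctrl. A merged locus of LOC113640525 and LOC113640580 reached 5.32, 204 and 58.1 FPKM in Str, 304, 12.9 and 139 FPKM in Rec and 254, 2006 and 23.9 FPKM in Ctrl. The Ctrl fish alone span the range of the other 6 apart from the lowest Str and Rec values, and its product is uncharacterized in the table. How reads of similar cathepsin L copies were divided among these loci was not stated, so their levels are uncertain.

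Legumain, an asparaginyl endopeptidase that also activates other lysosomal proteases, is listed for 8 loci, of which 6 were tested and none was called. A set of 6 is too small for this to differ from all genes, of which 2.78% rose and 3.1% fell in Str vs. Ctrl. The lowest fold change among the proteases was in LOC113652129 (legumain-like), with 0.641, 0.311 and 0.113 FPKM in Str against 9.97, 2.24 and 1.89 FPKM in Ctrl (log2 fold change -3.81, adjusted p = 0.0790). LOC113649214 (legumain-like) was at 4.36, 0.465 and 2.96 FPKM in Str and 1.86, 1.2 and 0.489 FPKM in Ctrl, with ranges that overlap. LOC113652590 (cathepsin D, an aspartic protease) was at 75.8, 123 and 75.2 FPKM in Str and 143, 134 and 82.1 FPKM in Ctrl and did not pass the test. *scpep1*, a serine carboxypeptidase, and *ctsc*, which activates the serine proteases of immune cells, had log2 fold changes of -1.33 and -0.92 in Str vs. Ctrl without a call.

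Enzymes in the breakdown of glycoproteins, glycolipids and glycosaminoglycans, acetyltransferases among them, had a class median of -1.06 in Str vs. Ctrl. It was -0.65 without Ctrl-1, where proteases had -0.74. Of 17 tested, 2 fell (11.8%, against 3.1% of all genes) and none rose. At the thresholds of the paper 7 were lower in Str (41.2%, against 9.83% of all genes). The 7 include LOC113636316 and LOC113636317, which overlap on the same strand and so may not be independent. *manba* (beta-mannosidase, which acts late in the degradation of N-linked glycans) had 4.2, 6.37 and 3.44 FPKM in Str, against 17.1, 29.7 and 15 FPKM in Ctrl (log2 fold change -2.07 ± 0.51 SE, adjusted p = 0.0458). In Rec it had 17.3, 14.8 and 5.31 FPKM, with Rec-3 inside the Str range (log2 fold change 1.56, adjusted p = 0.0836). LOC113651735 (lysosomal alpha-glucosidase-like, an enzyme that splits glycogen) was nearly the same in all 3 Str fish, at 7.61, 7.72 and 7.66 FPKM, against 11.6, 22.8 and 23.1 FPKM in Ctrl (log2 fold change -1.23 ± 0.27 SE, adjusted p = 0.0313). Its Rec values of 26.2, 16.1 and 18.1 FPKM were all above Str, and it rose (log2 fold change 1.5 ± 0.27 SE, adjusted p = 0.0147). The related *gaa* (lysosomal alpha-glucosidase) had 6.5, 6.83 and 5.62 FPKM in Str and 11.3, 8.61 and 9.02 FPKM in Ctrl, a smaller difference that was not called (log2 fold change -0.59).

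LOC113636316 (heparan-alpha-glucosaminide N-acetyltransferase-like), which acetylates heparan sulfate so that it can be degraded further, had 1.32, 4.38 and 0.329 FPKM in Str, against 15.3, 11.1 and 10.9 FPKM in Ctrl, and missed the threshold (log2 fold change -2.58, adjusted p = 0.0887). In Rec it reached 17, 25.7 and 15.1 FPKM and rose relative to Str (log2 fold change 3.38 ± 0.82 SE, adjusted p = 0.0359). LOC113636317, with the same product, lies within the span of LOC113636316 on the same strand, so their reads may have been divided between them; it had 0.0649, 0.285 and 0 FPKM in Str and 1.2, 1.84 and 1.43 FPKM in Ctrl. Both loci were lower in every Str fish than in any Ctrl fish. LOC113649174, listed as heparan-alpha-glucosaminide N-acetyltransferase, went the other way, without a call. Its values were 20.7, 18.9 and 20.5 FPKM in Str and 16.4, 13.6 and 10.1 FPKM in Ctrl (log2 fold change 0.59, adjusted p = 0.452).

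The 3 most abundant glycan-degrading enzymes were not called. *hexb* (the beta subunit of hexosaminidase, which degrades gangliosides) had 32, 126 and 34.2 FPKM in Str and 164, 159 and 112 FPKM in Ctrl. *naga* (alpha-N-acetylgalactosaminidase) was at 6.98, 70.3 and 14.8 FPKM in Str, below every Ctrl value of 135, 297 and 118 FPKM (log2 fold change -2.48, adjusted p = 0.116). *man2b1* (lysosomal alpha-mannosidase) was at 33.1, 224 and 94.1 FPKM in Str and 137, 232 and 43.5 FPKM in Ctrl. In all 3 the second Str fish was the highest of its group.

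Among lipid hydrolases, sulfatases and their helper proteins, 4 of 28 tested fell in Str (14.3%, against 3.1% of all genes) and none rose. Of these 4, 3 rose in Rec (10.7% of the 28, against 5.03% of all genes). *smpd1* (sphingomyelin phosphodiesterase, which releases ceramide from sphingomyelin) had 7.36, 14.3 and 10.4 FPKM in Str, against 29.5, 42.7 and 24.2 FPKM in Ctrl (log2 fold change -1.53 ± 0.32 SE, adjusted p = 0.0287). Its Rec values were 14.5, 11.7 and 14.4 FPKM, still below every Ctrl value, with no call in Rec vs. Str (log2 fold change 0.44, adjusted p = 0.420) or in Rec vs. Ctrl (log2 fold change -1.09, adjusted p = 0.822). *smpdl3b*, a phosphodiesterase related to acid sphingomyelinase that is held at the cell surface in mammals, had 13.6, 28.9 and 11.4 FPKM in Str, against 79.4, 82.8 and 107 FPKM in Ctrl (log2 fold change -2.25 ± 0.40 SE, adjusted p = 0.0171). In Rec it had 62.5, 72.2 and 108 FPKM and rose relative to Str (log2 fold change 2.26 ± 0.40 SE, adjusted p = 0.0140). *smpdl3a*, the secreted relative in mammals, had 3.65, 3.87 and 1.26 FPKM in Str, against 9.92, 16.9 and 11.4 FPKM in Ctrl (log2 fold change -2.05 ± 0.48 SE, adjusted p = 0.0394), and 11.4, 11.6 and 6.49 FPKM in Rec (log2 fold change 1.89 ± 0.48 SE, adjusted p = 0.0409). For all 3 genes the Str values lay below those of every Ctrl fish, which adds nothing to calls made on the same values.

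Prosaposin is cut into the saposins, small proteins that present sphingolipids to their hydrolases. LOC113642301 (prosaposin-like) had 26.2, 22.8 and 27.9 FPKM in Str, against 57.4, 81.2 and 105 FPKM in Ctrl (log2 fold change -1.59 ± 0.27 SE, adjusted p = 0.0157). In Rec it was at 82, 39.7 and 63.2 FPKM and rose relative to Str (log2 fold change 1.36 ± 0.27 SE, adjusted p = 0.0207). The merged locus that holds *psap* differed from this copy, with 29.9, 62.7 and 35.4 FPKM in Str and 37.4, 72.3 and 55.8 FPKM in Ctrl, ranges that overlap (log2 fold change -0.28). Another, weakly expressed copy, LOC113661315, had 0.636, 0.488 and 0.160 FPKM in Str and 0.983, 4.55 and 2.5 FPKM in Ctrl and was not called (log2 fold change -2.5, adjusted p = 0.104).

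The most abundant members of the lipid class were *npc2*, *ppt1* and *asah1*. *npc2* (listed as epididymal secretory protein E1), which hands cholesterol to the membrane protein NPC1, had 85, 202 and 124 FPKM in Str and 119.9, 274 and 133 FPKM in Ctrl. *ppt1* (palmitoyl-protein thioesterase 1), which removes fatty acids from proteins, had 56.9, 165 and 62.3 FPKM in Str and 134, 124 and 114 FPKM in Ctrl. *asah1* (acid ceramidase-like) had 30.1, 73.8 and 44.3 FPKM in Str and 97.5, 101 and 53.4 FPKM in Ctrl. The groups overlap for each, and none was called in any comparison. *gba* (glucosylceramidase) and LOC113637170 (lysosomal acid lipase), which frees cholesterol from its esters, had log2 fold changes of -1.49 and -0.62 in Str vs. Ctrl, also without a call.

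**Figure D2:**
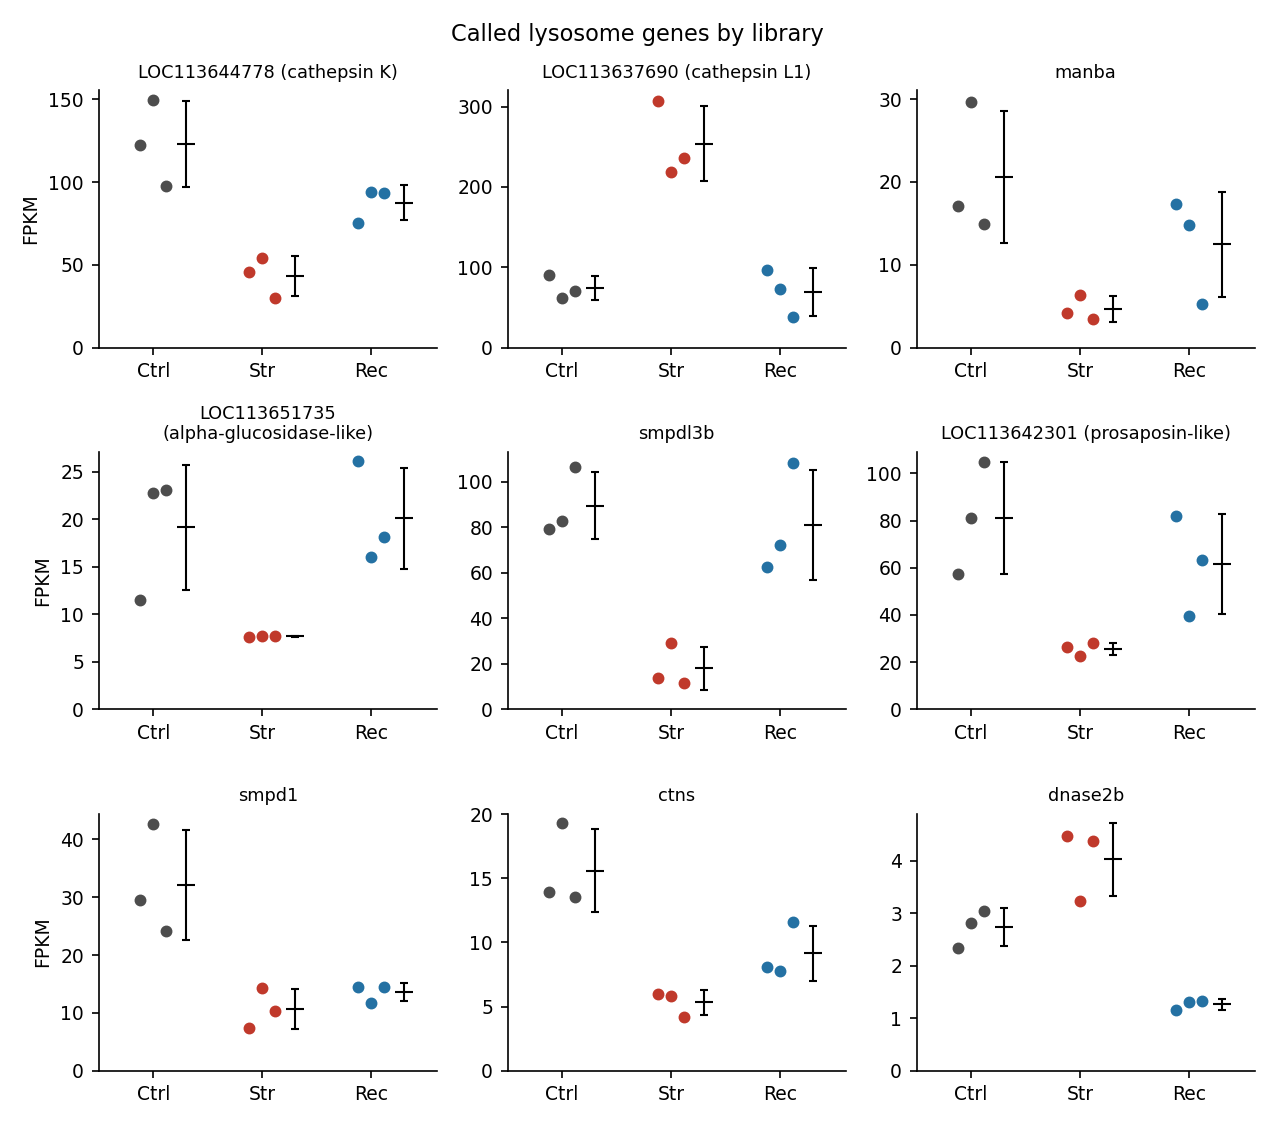
FPKM (y axis, from 0) of 9 called lysosome genes in each fish (points) by group (x axis), with the group mean and SD beside the points (n = 3 fish a group). LOC113637690 (cathepsin L1) was highest in Str, at 307, 218 and 236 FPKM, whereas the Str values of LOC113644778, *manba*, LOC113651735, *smpdl3b*, LOC113642301, *smpd1* and *ctns* lay below every Ctrl value. The 9 genes were drawn because they were called, so this separation is no further evidence.

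Of the 7 nucleases and phosphatases, 1 fell in Str and another fell in Rec (14.3% each, against 3.1% and 4.11% of all genes). LOC113644681 (tartrate-resistant acid phosphatase type 5-like), which in mammals marks osteoclasts and some macrophages, had 14.2, 17.3 and 8.84 FPKM in Str, against 44.1, 54.1 and 42.6 FPKM in Ctrl (log2 fold change -1.75 ± 0.39 SE, adjusted p = 0.0350). Its Rec values were 16.1, 29.9 and 17.1 FPKM, below every Ctrl value (log2 fold change -0.95, adjusted p = 0.841 in Rec vs. Ctrl). *dnase2b* (deoxyribonuclease-2-beta, an acid DNase) had 1.15, 1.31 and 1.32 FPKM in Rec, against 4.48, 3.23 and 4.38 FPKM in Str (log2 fold change -1.55 ± 0.27 SE, adjusted p = 0.0140), and 2.35, 2.82 and 3.05 FPKM in Ctrl. It was thus lower in Rec than in every fish of the other groups, and its relative *dnase2* was also lowest in Rec, with 4.51, 6.36 and 3.91 FPKM in Rec, against 10, 11 and 8.91 FPKM in Str and 10.3, 22.6 and 9.89 FPKM in Ctrl, but was not called. The lysosomal acid phosphatases LOC113651649 and *acp2* were at 26.3, 27.8 and 49.9 and 11.7, 23.1 and 14.8 FPKM in Str, against 21.9, 29.9 and 53.5 and 15.4, 17.8 and 13.1 FPKM in Ctrl, with ranges that overlap.

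Among membrane proteins, 1 of 24 tested members fell in Str vs. Ctrl (4.17%, against 3.1% of all genes). In Rec vs. Str 1 rose (4.17%, against 5.03% of all genes). *ctns* (cystinosin, which exports cystine from the lysosome) had 5.96, 5.78 and 4.2 FPKM in Str, against 14, 19.3 and 13.5 FPKM in Ctrl (log2 fold change -1.5 ± 0.27 SE, adjusted p = 0.0171). Rec had 8.08, 7.73 and 11.6 FPKM, above every Str and below every Ctrl value (log2 fold change 0.88, adjusted p = 0.0692 in Rec vs. Str). *mcoln3* (mucolipin-3, a calcium channel of endosomes and lysosomes) had 81.8, 56.2 and 41.7 FPKM in Rec, against 18.7, 26.3 and 16 FPKM in Str, and rose (log2 fold change 1.68 ± 0.44 SE, adjusted p = 0.0466), while Ctrl had 46.9, 26 and 24 FPKM. The family member *mcoln1*, the main calcium release channel of lysosomes, stayed between 5.78 and 12.04 FPKM in all 9 libraries and was not called.

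The tetraspanin *cd63* was the most abundant membrane member, at 435, 543 and 592 FPKM in Str and 514, 706 and 645 FPKM in Ctrl. *cd164* had 103, 137 and 114 FPKM in Str and 107, 82.9 and 72.1 FPKM in Ctrl, and LOC113657532 (macrosialin-like, a lysosomal glycoprotein of macrophages in mammals) had 60.7, 106 and 67.4 FPKM in Str and 130.1, 157 and 124 FPKM in Ctrl. None of the 3 was called, and only the macrosialin-like locus had groups that do not overlap. Of the structural glycoproteins, *lamp1* had 28.6, 34.4 and 21.1 FPKM in Str, against 69.5, 52.2 and 64.4 FPKM in Ctrl (log2 fold change -1.12, adjusted p = 0.145). LOC113655469 (lysosome-associated membrane glycoprotein 1-like) went the other way, also without a call. Its values were 19, 14.3 and 20.8 FPKM in Str and 12.9, 12 and 12.1 FPKM in Ctrl (log2 fold change 0.57, adjusted p = 0.284). *lamp2* had 19.8, 28.7 and 24.6 FPKM in Str, against 26.4, 31.8 and 23.3 FPKM in Ctrl (log2 fold change -0.12, adjusted p = 0.882). *npc1*, which exports cholesterol, was highest in the second Str fish, at 5.98, 37.9 and 19.9 FPKM in Str and 6.23, 16.6 and 6.2 FPKM in Ctrl.

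By edgeR no sorting protein was called in Str vs. Ctrl, where 10 of 35 had an unadjusted p below 0.05, against 3980 of all 17244 genes. In Rec vs. Str 4 of 35 fell (11.4%, against 4.11% of all genes) and none rose. *cltb* (clathrin light chain B) had 19, 15.3 and 25.4 FPKM in Rec, against 46.5, 32.9 and 58.4 FPKM in Str (log2 fold change -1.11 ± 0.26 SE, adjusted p = 0.0329). *nagpa*, the uncovering enzyme that completes the mannose 6-phosphate tag, had 4.4, 4.53 and 7.25 FPKM in Rec, against 9.91, 18.6 and 12.3 FPKM in Str (log2 fold change -1.25 ± 0.31 SE, adjusted p = 0.0378). Subunits of the adaptor complexes AP-1 and AP-4 made up the rest. LOC113657877 (AP-1 complex subunit sigma-2-like) had 7.96, 7.3 and 11.7 FPKM in Rec, against 19.7, 16.8 and 18.7 FPKM in Str (log2 fold change -0.94 ± 0.23 SE, adjusted p = 0.0364), and *ap4e1* had 3.07, 2.63 and 3.72 FPKM in Rec, against 5.64, 5.78 and 6.26 FPKM in Str (log2 fold change -0.81 ± 0.21 SE, adjusted p = 0.0467). In all 4 every Rec value was below every Str value. This is no further evidence, because the test that picked them used the same values.

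Other genes of the tagging route were not called in Str vs. Ctrl. The receptors that carry tagged enzymes, *m6pr* and *igf2r*, had log2 fold changes of -0.82 and -0.84 (adjusted p = 0.124 and 0.121 from edgeR), and the phosphotransferase subunits *gnptab* and *gnptg* had -0.57 and -0.30. *clta* (clathrin light chain A), the most abundant sorting member, had 98.8, 239 and 202 FPKM in Str, 146, 105 and 196 FPKM in Rec and 68.7, 95 and 60.4 FPKM in Ctrl. Every Str and every Rec value was above every Ctrl value, without a call (log2 fold change 1.32, adjusted p = 0.0737 in Str vs. Ctrl and log2 fold change 1.13, adjusted p = 0.822 in Rec vs. Ctrl). *ap3s2* (AP-3 complex subunit sigma-2) was lower in every Str fish than in any Ctrl fish, without a call, with 22.9, 26.8 and 17.1 FPKM in Str and 60.3, 45 and 48.5 FPKM in Ctrl (log2 fold change -1.18, adjusted p = 0.111).

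Members whose product is not lysosomal made up 48 of the 186 tested members. They held 4 of the 14 calls in Str vs. Ctrl and 4 of the 16 in Rec vs. Str, close to that share. The lowest fold change of any member was in LOC113656627 (patched domain-containing protein 3), which carries the KEGG ortholog of *npc1*, with 17.1, 9.04 and 8.23 FPKM in Str, against 132, 245.4 and 323 FPKM in Ctrl (log2 fold change -4.25 ± 0.71 SE, adjusted p = 0.0149). Its Rec values were 40.6, 80.7 and 14.1 FPKM, below every Ctrl value. *tspan15*, a tetraspanin that directs the surface protease ADAM10 in mammals, had 8.05, 9.35 and 6.64 FPKM in Str, against 19.4, 19.7 and 20.6 FPKM in Ctrl (log2 fold change -1.27 ± 0.29 SE, adjusted p = 0.0378), and 18.3, 20.8 and 13.5 FPKM in Rec (log2 fold change 1.27 ± 0.29 SE, adjusted p = 0.0314). Connector enhancers, scaffold proteins of ras signaling, are listed for 4 loci. LOC113649451 (connector enhancer of kinase suppressor of ras 2-like) had 1.86, 3.87 and 1.82 FPKM in Str, against 0.450, 0.613 and 0.469 FPKM in Ctrl (log2 fold change 2.36 ± 0.43 SE, adjusted p = 0.0184), and 0.377, 0.342 and 0.260 FPKM in Rec (log2 fold change -2.82 ± 0.44 SE, adjusted p = 0.0107). This locus reached 1 FPKM only in the 3 Str fish and so passed the filter on low values through the group where it was high. It makes up 1 of the 2 rises in Str vs. Ctrl and 1 of the 7 falls in Rec vs. Str. LOC113648279 (connector enhancer of kinase suppressor of ras 3-like) had 1.42, 1.73 and 0.803 FPKM in Str, against 4.43, 3.46 and 4.97 FPKM in Ctrl (log2 fold change -1.66 ± 0.36 SE, adjusted p = 0.0313). LOC113659446, with the same product name, had 1.15, 1.31 and 1.89 FPKM in Str and 0.616, 0.832 and 1.26 FPKM in Ctrl and was not called (log2 fold change 0.76, adjusted p = 0.294), and LOC113660354 was below the filter. In Rec, LOC113637161 (TOM1-like protein 2) rose to 11.6, 12.8 and 12 FPKM, against 5.75, 2.84 and 5.84 FPKM in Str (log2 fold change 1.47, adjusted p = 0.0463), and LOC113661087 (isoaspartyl peptidase/L-asparaginase-like) to 2.83, 2.91 and 2.62 FPKM, against 0.662, 1.02 and 0.394 FPKM in Str (log2 fold change 2.11, adjusted p = 0.0442).

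**Figure D3:**
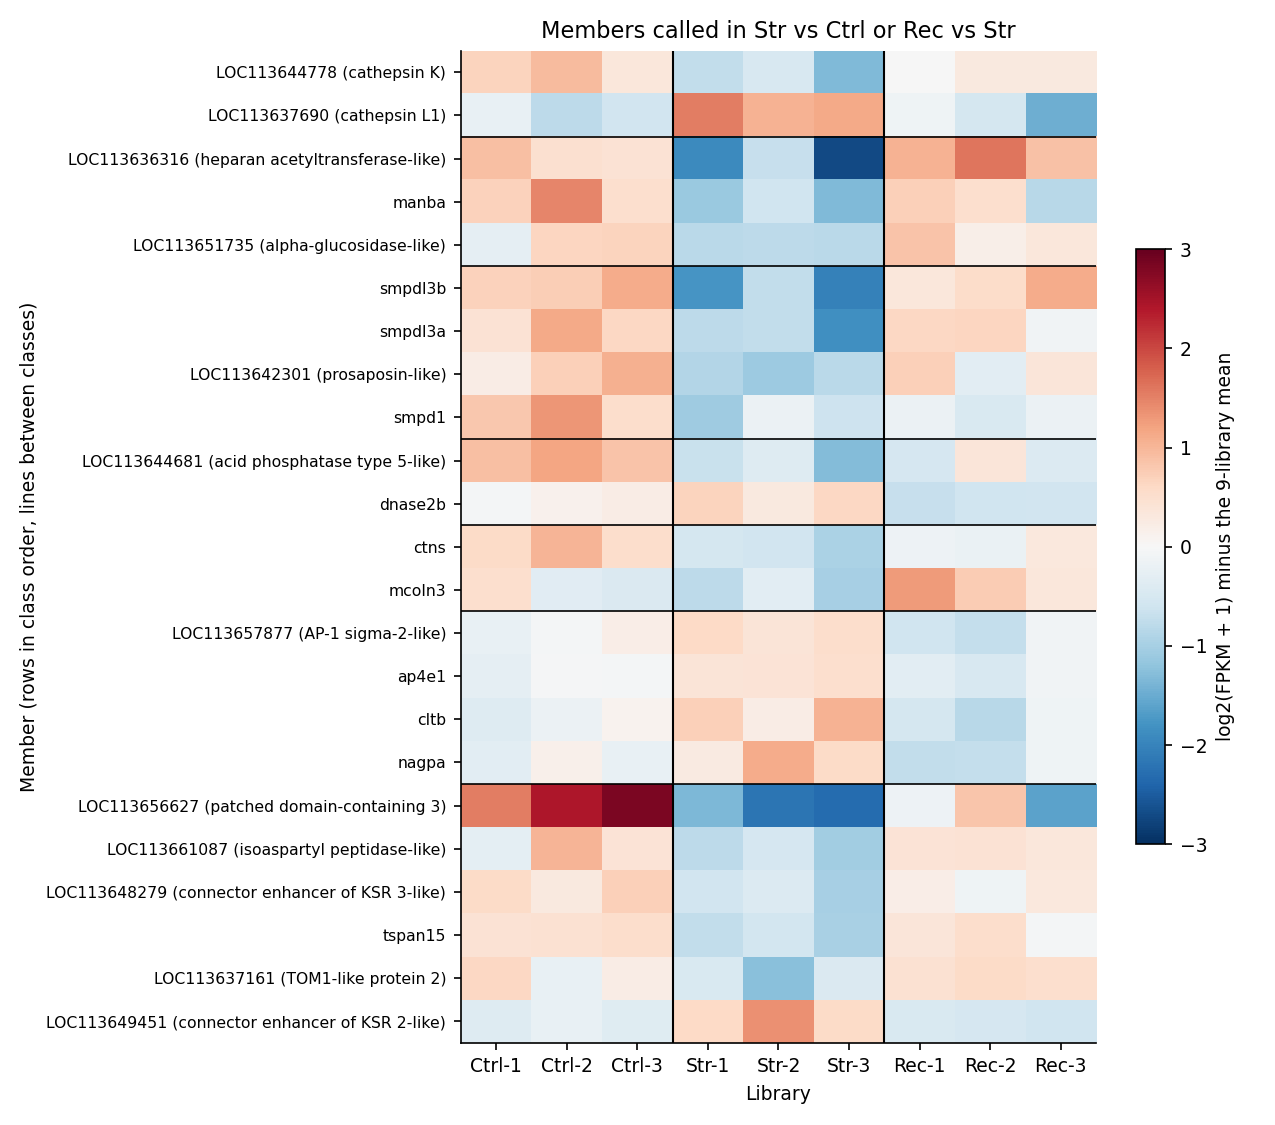
Deviation of log2(FPKM + 1) from the mean of the 9 libraries (color) for the 23 members called in Str vs. Ctrl or Rec vs. Str (rows, in class order with lines between classes) in each library (columns). LOC113656627 (patched domain-containing protein 3) has the widest range, from 8.23 FPKM in Str-3 to 323 FPKM in Ctrl-3.

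The fish of a group did not vary alike. Among the 138 tested members with a lysosomal product name, Str-2 was the highest of the Str libraries for 77 (55.8%), against 31.5% of all genes tested. It was the highest for 14 of 17 glycan-degrading enzymes, 22 of 28 members of the lipid class and 18 of 27 proteases, but for 8 of 35 sorting proteins. In Ctrl, Ctrl-2 was the highest for 70 of the 138 (50.7%), against 35.5% of all genes. As the plot of class medians by library shows, the median deviation of the proteases from the 9-library mean, on the log2(FPKM + 1) scale, was 0.16 in Str-2, -0.32 in Str-1 and -0.57 in Str-3.

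**Figure D4:**
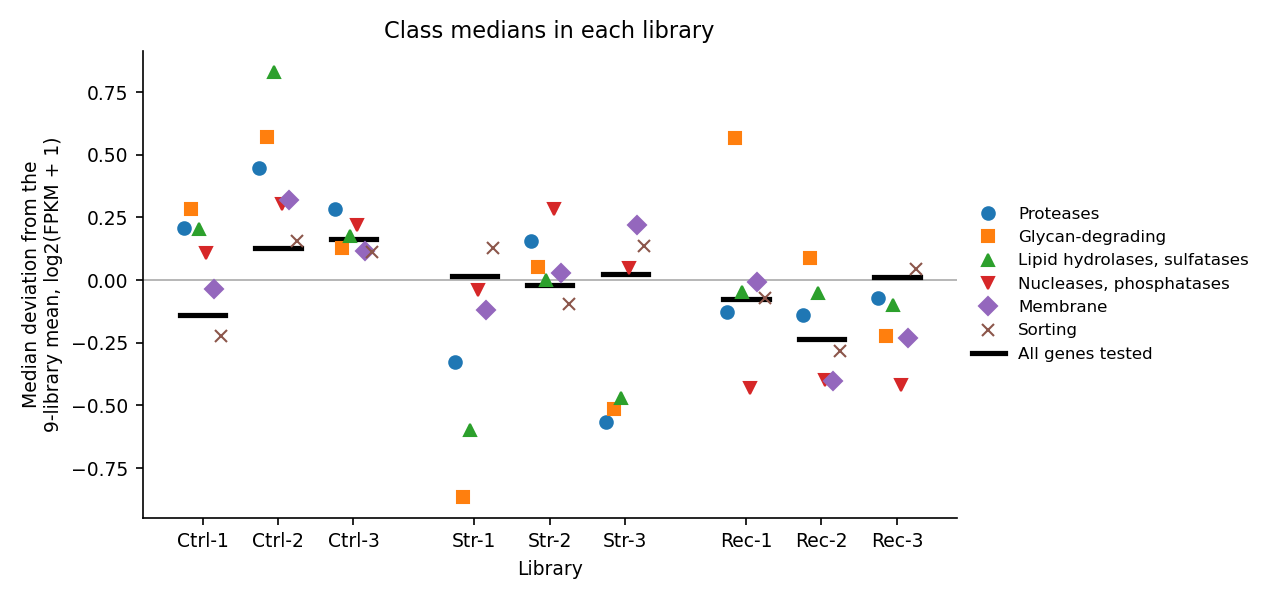
Median deviation from the mean of the 9 libraries in log2(FPKM + 1) (y axis) for the tested members of 6 classes (symbols) and for all genes tested (black bars), in each library (x axis). For the glycan-degrading enzymes the median was -0.86 in Str-1, 0.05 in Str-2 and -0.51 in Str-3, while all genes lay between -0.02 and 0.03 in these libraries.

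Without Str-2, the median log2 fold change in Str vs. Ctrl was -1.14 for proteases, -1.25 for glycan-degrading enzymes and -0.96 for the lipid class. In that fit 45 of 186 members were lower at the thresholds of the paper, beside 1791 of all 17244 genes. By the adjusted p, 10 members were called, beside 612 of all genes. Without Ctrl-2, the medians were -0.55, -1.13 and -0.61. At those thresholds 28 members were lower, beside 1506 of all genes, and 3 members were called by the adjusted p. Over the 9 fits that leave out 1 library, the medians of these 3 classes stayed below 0 in Str vs. Ctrl, between -1.25 and -0.45, while those of membrane proteins (-0.07 to 0.14) and of nucleases and phosphatases (-0.27 to 0.23) took either sign. The number of calls depended on single fish. The 12 falls in Str vs. Ctrl became 0 without Ctrl-3 or without Str-3, 2 without Str-1, 3 without Ctrl-2 and 5 without Ctrl-1. Calls over all genes dropped in the same fits, to 115 without Ctrl-3, 129 without Str-3, 438 without Str-1, 280 without Ctrl-2 and 547 without Ctrl-1, against 1014 with all libraries. In Rec vs. Str the 9 rises became 0 without Str-3, 3 without Str-1, Rec-1, Rec-2 or Ctrl-3, 4 without Ctrl-2, 5 without Str-2 and 14 without Rec-3, and the 7 falls became 1 without Str-3, 2 without Rec-2, Ctrl-2 or Ctrl-3, 3 without Str-2 and 4 without Str-1 or Ctrl-1. Over all genes this comparison had 1577 calls with all libraries, 247 without Str-3, 479 without Rec-2, 696 without Str-1 and 830 without Str-2, but 1482 without Rec-1 and 1525 without Rec-3. The highest adjusted p that any of the calls took when 1 fish of its comparison was left out was 0.165, and that of *smpdl3b* was 0.0681 in Str vs. Ctrl and 0.0572 in Rec vs. Str. In Str vs. Ctrl, *manba*, *smpdl3a*, *tspan15*, LOC113637690 and LOC113644681 lost the call whichever of the 6 fish was left out. In Rec vs. Str the same held for *ap4e1*, LOC113637161 and LOC113661087, while LOC113649451 kept its call in all 6 fits. The filter on low values was set on all 9 libraries and not reset in these fits. LOC113649451 reached 1 FPKM in the Str fish only, so a filter reset without a Str fish would have removed it. Its kept call therefore says little about its stability. *ap4e1* also lost its call with RLE scaling, limma, no FPKM filter and the replicate block.

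Markers of cell types were read beside these values, because a whole gut segment holds many cell types; in such bulk samples, fewer cells of a type and less RNA per cell cannot be told apart. *vil1* (villin-1, of the brush border) was at 119.9, 98 and 99.2 FPKM in Str and 153, 228 and 242 FPKM in Ctrl, while *cdhr5* was near 0 in all 9 libraries. These values do not tell which gut segment was sampled. Summed over 11 loci listed as enterocyte markers, the level was 2868, 2988 and 2009.7 FPKM in Str, 11200.2, 10312 and 23236 FPKM in Rec and 10057, 4332 and 7289 FPKM in Ctrl. A few loci dominate this sum. *fabp6* alone made up 12067 FPKM in Rec-3, and LOC113649980 (fatty acid-binding protein, intestinal-like) 1612, 934 and 672 FPKM in Str. Within groups *fabp6* varied widely, at 31.6, 193 and 65.2 FPKM in Str, 2515, 512 and 12067 FPKM in Rec and 2369, 127 and 827 FPKM in Ctrl. Whether the sampled position differed between fish was not tested. *slc5a1* had a positive log2 fold change in Str vs. Ctrl (0.39). Of the 9 tested loci, 1 fell in Str vs. Ctrl (all genes: 3.1%) and 5 rose in Rec vs. Str (all genes: 5.03%). Their median log2 fold change was -1.33 in Str vs. Ctrl and 1.32 in Rec vs. Str. The medians of proteases, glycan-degrading enzymes and the lipid class have the same signs, a grouping made with the values seen. Nucleases and phosphatases had medians of 0.06 and -0.70. The part of these enterocyte markers in the changes of the lysosome genes was not tested.

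Lysosome-rich enterocytes, known from zebrafish, take up protein through cubilin, amnionless and the adaptor Dab2. *cubn* had 0, 11 and 5.61 FPKM in Str and 1.06, 64.7 and 0.0247 FPKM in Ctrl, and *amn* had 0.0293, 32.3 and 11.3 FPKM in Str and 31.2, 162 and 2.27 FPKM in Ctrl. Both were highest of their group in Str-2 and in Ctrl-2, and neither was called. Proteases, glycan-degrading enzymes, the lipid class and membrane proteins (11 of 24 in each) were also most often highest in these libraries. Sorting proteins were so in Ctrl-2 only (18 of 35). Among all genes tested, Str-2 was the highest of its group for 31.5% and Ctrl-2 for 35.5%. LOC113637659 (disabled homolog 2) rose in Str, with 23.4, 21.6 and 52.5 FPKM against 6.01, 7.68 and 5.23 FPKM in Ctrl (log2 fold change 2.4 ± 0.40 SE, adjusted p = 0.0144), and both *lrp2* loci stayed below 1 FPKM in all 9 libraries. The sum over the 5 loci was 23.5, 64.9 and 69.5 FPKM in Str, 35.2, 4.93 and 8.83 FPKM in Rec and 38.4, 234 and 7.73 FPKM in Ctrl.

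Smooth muscle markers (8 loci) summed to 23037, 3993 and 12451 FPKM in Str, 12985, 17501 and 9798 FPKM in Rec and 14431, 6522 and 5464 FPKM in Ctrl, lowest in Str-2, with no call. Macrophages are also rich in lysosomes. Of 21 tested macrophage and myeloid loci, 2 rose and 2 fell in Str vs. Ctrl (all genes: 2.78% and 3.1%). For Rec over Str the numbers were also 2 and 2 (all genes: 5.03% and 4.11%). After transport the risers carry the product name microfibril-associated glycoprotein 4, and the fallers are LOC113656981 (cytochrome b-245 heavy chain, of the phagocyte oxidase) and a merged locus that holds LOC113656273 (macrophage-expressed gene 1 protein). The list summed to 712, 767 and 607 FPKM in Str, 355, 188 and 288 FPKM in Rec and 226, 365 and 494 FPKM in Ctrl, while the median log2 fold change over the tested loci was -0.996 in Str vs. Ctrl. In the sum, LOC113646626 (microfibril-associated glycoprotein 4) alone made up 456, 438 and 390.1 FPKM in Str. Of 4 tested T and B cell markers, 2 fell in Str vs. Ctrl (all genes: 3.1%). The 5 loci summed to 11.8, 12.1 and 9.43 FPKM in Str and 21.8, 48 and 66.7 FPKM in Ctrl. Liver markers (10 loci) summed to at most 75.2 FPKM, in Str-3, and exocrine pancreas markers (11 loci) to at most 176 FPKM, in Ctrl-3. The part of these lists in the changes of the lysosome genes was not tested.

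The proton pump that acidifies the lysosome was measured through 31 loci that match the V-ATPase or carry both pathways, 5 of them under other product names (RING finger protein 113A, transmembrane protein 64, tectonic-2, an uncharacterized protein and, at a merged locus, renin receptor, the usual name of a V-ATPase accessory subunit). Of 26 tested, none was called in Str vs. Ctrl (all genes: 2.78% rose and 3.1% fell), where log2 fold changes ran from -1.03 to 1.01. In Rec vs. Str 1 fell (all genes: 4.11%). That locus is LOC113662444, a 116 kDa subunit, with 0.855, 0.604 and 0.963 FPKM in Rec, against 2.45, 1.99 and 3.45 FPKM in Str (log2 fold change -1.6, adjusted p = 0.0396). Regulators of lysosome formation, the MiT/TFE transcription factors and the nutrient sensors of the mTOR complex, were represented by 21 tested loci. None was called in Str vs. Ctrl (all genes: 2.78% rose and 3.1% fell), and 1 rose in Rec vs. Str (all genes: 5.03%), *mtor* itself. It had 4.76, 4.55 and 6.72 FPKM in Rec, against 3.2, 2.78 and 2.36 FPKM in Str (log2 fold change 1.04, adjusted p = 0.0270). *tfeb*, the master regulator of lysosomal genes in mammals, had 2.85, 5.81 and 3.55 FPKM in Str and 2.71, 19.1 and 3.97 FPKM in Ctrl, highest of each group in Str-2 and Ctrl-2, and was not called. Among 21 tested genes of vesicle fusion and lysosome positioning, edgeR called none in Str vs. Ctrl or in Rec vs. Str.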

How the data were processed

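Posterior intestine RNA of 9 fish (3 each of Str, Rec and Ctrl) was sequenced. The submitters' processing notes name HISAT and StringTie; a genome build was not stated in what was read here. The deposited table holds FPKM, computed by the authors, and counts. The deposited counts are whole numbers with small values peaking at multiples of 4, and were handled like estimated counts rather than plain read counts; how the authors made these estimated counts from the alignments was not stated. Total counts ran from 48605412 to 73110636 per library. Columns of the authors' own comparisons (fold changes and p-values) were not used.

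Here the counts were tested with edgeR 4.0.16 (R 4.3.3; quasi-likelihood F test, TMM scaling, one fit over all 9 libraries) on 17244 of 26163 genes that reached 1 FPKM in 3 or more libraries, with Benjamini-Hochberg adjustment over all of them. Standard errors were derived from the fold change and the F statistic. Alternatives were DESeq2 1.42.0, RLE scaling, no FPKM filter, counts divided by 4, limma 3.58.1 on log2(FPKM + 1), the replicate number as a block, and each library left out. The fit was tested on simulated data with 200 changed genes.

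Members and lists were chosen with earlier results of these data known. Genes named were the members called in Str vs. Ctrl or Rec vs. Str (at most 15 per direction), the 3 most abundant of each class, cathepsin K loci and members called in Rec vs. Ctrl by any tool; other members are named for their role, with their values already seen. Classes follow product names. No sequences were used here.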

Additional observations from a re-analysis of the deposited data

How the results depend on the processing

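In Str vs. Ctrl, the 2 rises became 9 with DESeq2 and 1 without the FPKM filter, and the 12 falls became 26 with DESeq2. In Rec vs. Str, the 9 rises became 26 with DESeq2, and the 7 falls became 11 with DESeq2, 3 without the FPKM filter and 4 with the replicate block. DESeq2 called more genes overall too, 2540 in Str vs. Ctrl and 3193 in Rec vs. Str, against 1014 and 1577 with edgeR; without the FPKM filter 812 and 1292 were called. The cause was not tested. RLE scaling, counts divided by 4 and limma kept these counts within 1.5 times. Leaving out 1 library gave 0 to 3 rises and 0 to 17 falls in Str vs. Ctrl, 0 to 14 rises and 1 to 7 falls in Rec vs. Str, with 0 members called between Rec and Ctrl.

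Whether the replicate numbers pair the fish was not stated. Same-numbered libraries had correlations of -0.26 to 0.19 in their deviations from the group means, across genes, and 1 of 9 such pairs was over 0.1. These lay within the range of the differently numbered libraries, -0.31 to 0.30. That shows no sign of pairing but cannot exclude it. With the replicate block, calls over all genes numbered 623 in Str vs. Ctrl and 893 in Rec vs. Str, against 1014 and 1577 without it, and stayed at 0 for Rec over Ctrl.

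Changes of sign among the named genes were confined to uncalled values. With the replicate block, *man2b1* in Str vs. Ctrl was 0.0531 on the log2 scale. Without 1 library, log2 fold changes in Str vs. Ctrl ranged for *npc2* from -0.71 to 0.12, for *man2b1* from -1.11 to 0.29, for LOC113651649 from -0.27 to 0.41, for *gnptg* from -0.49 to 0.0691 and for *acp2* from -0.21 to 0.34. Without 1 library, log2 fold changes in Rec vs. Str ranged for *npc2* from -0.27 to 0.70, for *ppt1* from -0.0427 to 0.91, for *ctsh* from -0.16 to 0.86, for *clta* from -0.47 to 0.10, for *asah1* from -0.0408 to 0.86, for *man2b1* from -1.58 to 0.0135 and for *ctsb* from -0.0263 to 0.63.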
